A study of Mus musculus with 12 samples.

Results

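Hearts of Adam19 KO mice were compared with hearts of WT mice across all expressed genes and, within those genes, across their transcripts. The libraries were chosen by their labels and are 6 of the 12 of the series, 3 from WT and 3 from KO hearts, and the other 6 are from lungs of the same mice. The study set out to test in mice whether Adam19 has a part in lung function, and hearts were sequenced alongside the lungs. All mice were males of 9 to 13 weeks on the 129S6/SvEvTac background. KO mice were homozygous for the Adam19-tdTomato allele, in which a tdTomato construct and an antisense hygromycin resistance cassette take the place of exons 6 and 7, and WT mice carried no targeted allele. The allele was made in 129S embryonic stem cells, and it is present in every tissue throughout life. Whole hearts were used, so each library mixes muscle, vessels, valves and blood. A value below is a normalized abundance on a log2 scale, and a difference is the KO mean minus the WT mean on that scale, so that 1 unit is a doubling.

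ADAM19 is a membrane-anchored metalloprotease of the ADAM family, enzymes that cut the outer parts off other membrane proteins. It is known from the developing heart, where it takes part in forming the valves and the septum between the ventricles, and neuregulins are among its known substrates. In the adult heart the muscle cells supply most of the RNA, while fibroblasts, endothelium, smooth muscle and resident macrophages supply smaller amounts.

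The libraries held between 18392300 and 35862900 estimated read counts. WT replicates 2 and 3 were the shallowest, at 20381300 and 18392300, and the other 4 held at least 31784700, so depth moved in part with genotype. All 10 cardiomyocyte markers were present, with a summed level of 21.80 to 22.05 in WT and 21.82 to 22.01 in KO hearts. Lung epithelium markers were also seen, at a summed level of 12.55 to 13.01 in WT and 12.79 to 13.29 in KO hearts. A few abundant members can set such a sum, so it is no measure of lung tissue in a heart. All 10 lung epithelium markers tested were higher in KO hearts, none with an unadjusted p under 0.05. The mouse identifiers begin with prefixes that WT and KO mice do not share, so prefix and genotype cannot be told apart. The labels give no litter for these mice, and p-values measure the spread between these 6 animals.

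Adam19 itself was examined first. In GRCm39, exons 6 and 7 of its full-length transcript lie on the plus strand at chr11:46003584-46003776 and chr11:46004450-46004515, both within the coding part. Together they hold 259 bases, which is not a multiple of the codon length. They are shown because they are what the allele takes out, beside the junction of exon 5 with exon 6 in a full-length RNA and the junction of exon 5 with exon 8 in an RNA that skips both. Capitals mark the downstream exon.
Exon 6: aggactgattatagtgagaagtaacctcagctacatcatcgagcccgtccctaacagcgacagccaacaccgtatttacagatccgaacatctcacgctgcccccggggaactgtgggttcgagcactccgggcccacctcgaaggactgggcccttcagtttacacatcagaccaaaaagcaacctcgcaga
Exon 7: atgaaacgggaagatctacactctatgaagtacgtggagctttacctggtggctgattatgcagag
Exon 5 to exon 6: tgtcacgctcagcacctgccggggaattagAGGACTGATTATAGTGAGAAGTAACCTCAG
Exon 5 to exon 8: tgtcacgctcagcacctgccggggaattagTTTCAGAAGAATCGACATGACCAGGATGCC

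The full-length Adam19 transcript was lost from KO hearts. Its values were 10.07, 10.15 and 11.04 in the WT hearts, and it was listed at 0 in all 3 KO hearts (adjusted p = 0.00288). The transcript that runs from exon 5 into tdTomato had the opposite pattern, at 11.27, 10.45 and 10.90 in KO hearts, 1.93 in WT replicate 1 and 0 in the other WT hearts (adjusted p = 0.0121). The groups did not overlap for either transcript.

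A smaller amount was assigned in KO hearts to the transcript that joins exon 5 to exon 8. It rests on 77.3, 69.4 and 74.6 estimated counts that Salmon gave to this transcript and not on a count of junction reads. It was at 6.18, 6.07 and 6.14 in the 3 KO hearts and was listed at 0 in every WT heart, and its adjusted p of 0.082 missed the threshold. Read from the start codon of the full-length transcript, this join meets a stop codon after 165 of the 920 codons, 85 bases past exon 5. The transcripts that hold exons 8 to 23 reached a sum of 10.07, 10.19 and 11.06 in the WT hearts but of 6.18, 6.07 and 6.14 in those of KO mice, a difference of −4.31 that left 4.75% of the WT level. An exact two-sided permutation test over the 6 sums gave p = 0.1, the smallest that 3 mice against 3 allow.

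RNA from the locus as a whole was not lost. All Adam19 and targeted allele transcripts together averaged 10.45 ± 0.54 (SD, n = 3) for WT hearts against 10.94 ± 0.40 (SD, n = 3) for KO, with overlap between genotypes (exact two-sided permutation p = 0.3). The deposited gene value of Adam19, which leaves out the exon 5 to exon 8 join, was 9.17, 9.25 and 10.27 in WT and 6.67, 6.01 and 6.56 in KO hearts, a difference of −3.14 ± 0.31 (SE, adjusted p = 0.00558). With the value of gene Adam19 taken as the sum of its transcripts the difference was −7.06. The Adam19 transcript still seen in KO hearts, the short non-coding ENSMUST00000137014.2, was at 3.61, 3.00 and 3.504 there and at 2.11, 1.80 and 4.25 in WT hearts.

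**Figure D1:**
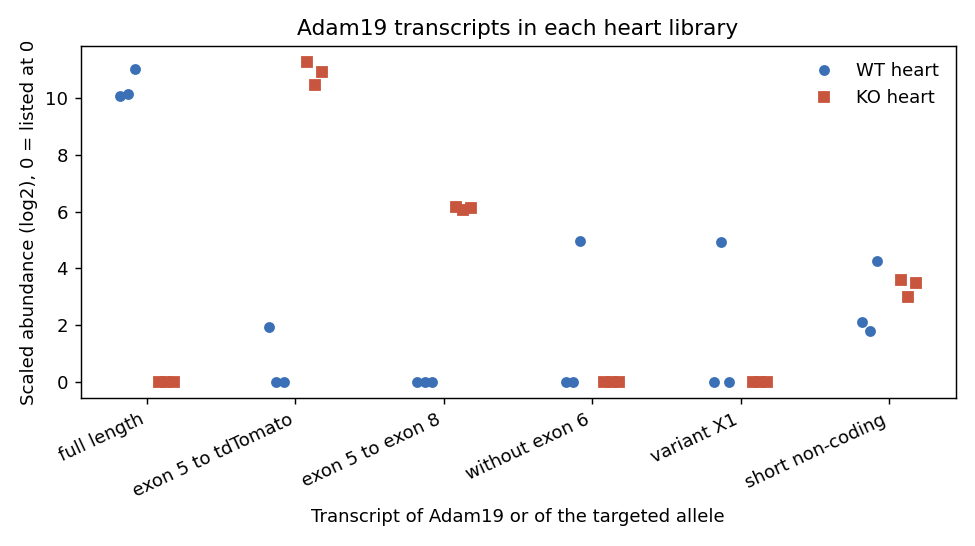
Scaled abundance (log2, with 0 meaning listed at 0) of Adam19 and targeted allele transcripts in each WT (circles) and KO (squares) heart library. The full-length transcript was at 10.07 to 11.04 in WT and at 0 in KO hearts, while the exon 5 to tdTomato and exon 5 to exon 8 transcripts were at 10.45 to 11.27 and 6.07 to 6.18 in KO hearts.

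Beyond Adam19, few genes passed the thresholds. On simulated data the same test recovered 35.4% of genes changed 2-fold and 88.9% of those changed 8-fold, so most 2-fold changes could be missed. Of 15303 genes tested, 13 (0.085%) passed an adjusted p of 0.05, a fold change of 1.5 and a mean of 6 in the higher group, with 7 higher in KO hearts (0.0457% of genes tested) and 6 lower (0.0392%). The genotypes did not overlap in any of the 13, while of all genes 7.82% lay apart with KO higher and 5.23% with KO lower. At an unadjusted p under 0.05 stood 1141 genes (7.46%), of which 729 (4.76%) were higher and 412 (2.69%) lower in KO hearts. The median difference over all genes tested was 0.03, and the quartiles were −0.13 and 0.22.

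Pttg1 and Kpna2, which act in dividing cells, rose in KO hearts. Pttg1, the securin that holds separase inactive until chromosomes part, was at 6.31, 5.81 and 6.04 in WT and at 10.37, 10.36 and 10.55 in KO hearts (difference 4.37 ± 0.17 SE, adjusted p = 2.15e-05). Kpna2, an importin alpha that carries proteins into the nucleus, was at 4.04, 3.45 and 4.43 in WT and at 9.72, 9.88 and 9.88 in KO hearts (difference 5.85 ± 0.26 SE, adjusted p = 3.22e-05). Neither gene overlapped between genotypes. Other genes of cell division did not move with them: of 34 tested, Mcm7, a subunit of the replicative helicase, was the only other one with an unadjusted p under 0.05, at a difference of 0.55 (adjusted p = 0.61), and the list's median was 0.10.

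Kpna2 has a near-identical copy, and the copy fell. Gm10184, an intronless gene on chromosome 17 that newer annotation names Kpna2rt, was at 11.72, 11.75 and 12.02 in WT hearts and at 2.61, 0 and 2.43 in KO hearts (difference −10.15 ± 0.60 SE, adjusted p = 0.000182). Both coding sequences have 1587 bases and differ at 2 of them, A696G and C741T, counted from the first coding base with the base of Kpna2 given first. The stretch below, coding bases 652 to 741, is shown because it holds both differences, in capitals. In GRCm39 it lies on the minus strand at chr11:106882084-106882253, across an intron, for Kpna2 and at chr17:90217004-90217093 for Gm10184.
Kpna2: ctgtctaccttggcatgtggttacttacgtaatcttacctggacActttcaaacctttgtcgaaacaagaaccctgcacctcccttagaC
Gm10184: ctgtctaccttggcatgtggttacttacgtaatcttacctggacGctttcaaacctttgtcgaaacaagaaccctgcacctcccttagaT

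So few distinguishing bases leave the division of reads between the pair uncertain. Added together, their gene values came to 11.73, 11.76 and 12.03 in the WT hearts but 9.73, 9.88 and 9.89 in those of KO mice, a difference of −2.01. From the transcript table it averaged 11.82 ± 0.17 (SD, n = 3) for WT against 10.35 ± 0.09 (SD, n = 3) for KO, a difference of −1.47 (exact two-sided permutation p = 0.1, the smallest possible). The pair as a whole was thus lower in every KO heart than in any WT heart in both tables, while Kpna2 alone was higher.

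The other genes that fell were pseudogenes and non-coding RNAs. Gm12663, a processed pseudogene that matches the phosphatase gene Ublcp1 at 99.4% over 958 bases, was at 6.63, 6.87 and 6.57 in WT hearts, against a listed 0 for every KO heart (adjusted p = 0.000473). Gm18860, a processed pseudogene that matches Cnot8, a deadenylase subunit, at 95.01% over 782 bases, was at 5.09, 6.91 and 6.72 in WT and at 0.69, 0 and 0 in KO hearts (difference −6.01 ± 0.63 SE, adjusted p = 0.00735). AA465934, a long non-coding RNA, was at 8.74, 8.64 and 8.96 in WT and at 2.72, 3.89 and 2.66 in KO hearts (difference −5.69 ± 0.35 SE, adjusted p = 0.000221). The genotypes overlapped in none of these. Gm38534, also a long non-coding RNA, was at 6.86, 6.75 and 6.90 in WT and at 4.24, 4.35 and 4.56 in KO hearts (difference −2.45 ± 0.25 SE, adjusted p = 0.00579).

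Adding a pseudogene to its parent gave sums that overlapped between genotypes. Gm12663 with Ublcp1 summed to 9.19 to 9.57 in WT and 9.44 to 9.77 in KO hearts, and Gm18860 with Cnot8 to 10.11 to 10.25 and 10.002 to 10.29. Ublcp1 alone was at 9.20, 9.34 and 8.93 in WT and at 9.44, 9.77 and 9.71 in KO hearts, without overlap. Its difference was 0.48 (unadjusted p = 0.0135, limma), while Cnot8 alone overlapped between genotypes. Another 2 genes had an adjusted p under 0.05 but stayed under the abundance threshold. Gm7334, a pseudogene identical to the growth inhibitor Btg3 over 756 bases, was at 6.01, 5.71 and 5.98 in WT hearts and at 0 in KO hearts (adjusted p = 0.00293). Gm28052, a long non-coding RNA that shares sequence with Cmtr1, an mRNA cap methyltransferase, was at 0 in WT hearts and at 6.01, 4.55 and 6.85 in KO hearts (adjusted p = 0.0195).

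Cyfip2 and its neighbour Gm12167 rose, and so did Susd5 and Ucp3. Cyfip2, a subunit of the WAVE complex that directs actin branching, was at 9.22, 9.43 and 9.91 in WT and at 12.11, 12.54 and 12.01 in KO hearts, 6.48-fold higher (difference 2.70 ± 0.21 SE, adjusted p = 0.000985). The long non-coding RNA Gm12167 was at 4.19, 4.42 and 4.38 in WT and at 6.80, 6.98 and 7.46 in KO hearts (difference 2.75 ± 0.27 SE, adjusted p = 0.00558). Both lie close to Adam19, with midpoints 0.152 and 0.242 Mb from its own.

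Susd5, a membrane protein with a sushi domain, was at 6.99, 7.51 and 7.12 in WT and at 8.98, 8.87 and 9.16 in KO hearts, 3.48-fold higher (difference 1.80 ± 0.18 SE, adjusted p = 0.00601). Ucp3, a mitochondrial carrier of muscle and a target of PPAR-alpha, was at 8.96, 8.29 and 8.24 in WT and at 9.999, 10.83 and 10.41 in KO hearts, 3.78-fold higher (difference 1.92 ± 0.25 SE, adjusted p = 0.0385). The genotypes overlapped in neither gene. Some calls were lost when 1 library was left out, which also leaves fewer mice for the test. Ucp3 lost its call without WT replicate 2 or 3 or KO replicate 2 or 3, and Susd5 without KO replicate 1 or 3. Gm12167 lost it without KO replicate 3, Gm18860 without WT replicate 2 or 3 and Gm38534 without WT replicate 1.

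**Figure D2:**
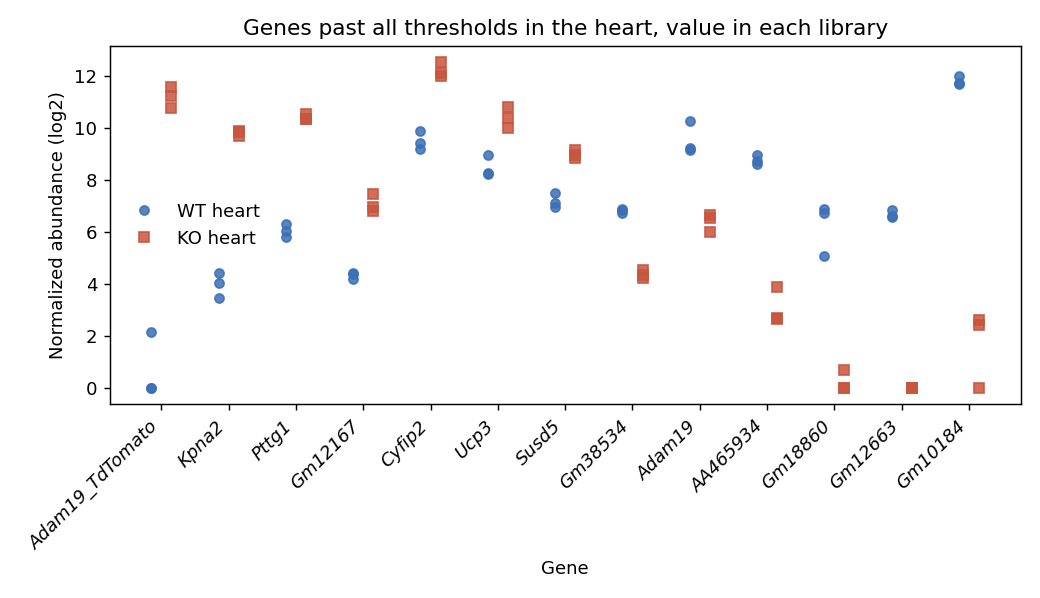
Normalized abundance (log2) of the 13 genes past all thresholds in each WT (circles) and KO (squares) heart library. The libraries of the genotypes overlapped in none of them, and Gm12663 was at 0 in all 3 KO hearts.

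Of 10 genes that the study listed for the lungs of these mice, 9 were tested in the heart and 6 passed all thresholds, Pttg1, Kpna2, Gm10184, AA465934, Gm12663 and Gm18860. The list came from the same mice and is no independent evidence of direction. Cd300lg, a receptor of capillary endothelium, was at 10.32, 9.88 and 10.37 in WT and at 10.56, 10.71 and 10.47 in KO hearts (adjusted p = 0.647). Rpl14-ps1 was at 7.54, 8.44 and 0 in WT and at 4.38, 0 and 2.68 in KO hearts (adjusted p = 0.757), and Gm11131 was at 4.76, 0 and 0 in WT and at 4.61, 3.88 and 4.50 in KO hearts (adjusted p = 0.666). Gm21970 was seen in 1 heart, WT replicate 2, and was not tested.

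Most called genes lay on chromosome 11, which carries Adam19. Of the 12 with a locus in the annotation, 8 lay there, Adam19 itself among them, as did 1222 of 15260 tested genes. Pttg1 was 2.68 Mb from Adam19, Gm12663 29.4 Mb, AA465934 37.2 Mb, Gm38534 42.1 Mb and Kpna2 60.9 Mb. The 4 others were Gm10184 on chromosome 17, Gm18860 on chromosome 8, Susd5 on chromosome 9 and Ucp3 on chromosome 7. Of these, Gm10184 and Gm18860 match genes of chromosome 11, Kpna2 at 99.9% over 1968 bases and Cnot8 at 95.01% over 782 bases. How reads were divided within these pairs was not tested.

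The wider gene set showed the same tilt. On chromosome 11, 146 of 1222 genes (11.9%) had an unadjusted p under 0.05, against 989 of 14038 (7.04%) elsewhere, and the 19 other chromosomes, X included and Y left out, ranged from 5.32% to 8.1%. Within 20 Mb of Adam19 the share was 14.6% of 288 genes, and farther along the chromosome it was 11.04% of 933. The median difference of chromosome 11 genes was 0.02, so they did not shift as a body in 1 direction. Chromosome 11 had the higher share in all 19 settings of the gene test, at 6.25% to 13.3% against 3.58% to 8.81% elsewhere. Its lowest share came without KO replicate 1 and its next lowest, 7.67%, without KO replicate 3. In the lungs of the same mice the shares were 8.02% on chromosome 11 and 5.73% elsewhere.

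**Figure D3:**
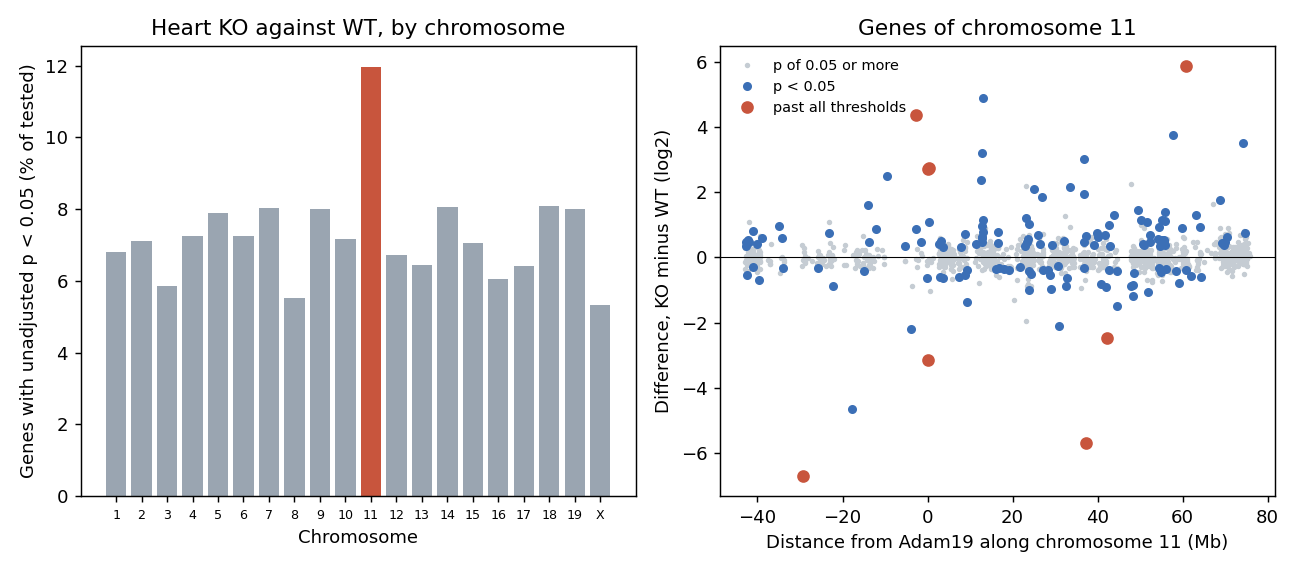
Left, percentage of tested heart genes with an unadjusted p under 0.05 on each chromosome. Right, the difference between KO and WT hearts (log2) of each chromosome 11 gene against its distance from Adam19 (Mb), with an unadjusted p under 0.05 in blue and genes past all thresholds in red. Chromosome 11 stands at 11.9%, and its called genes lie up to 60.9 Mb from Adam19.

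Lungs of the same mice, which the heart tests did not use, give most called genes a second measurement. Gm12167 and Gm38534 were almost absent there, with at most 4.15 and 1.03 estimated counts in a lung, so their lung direction is not informative. Of the 9 called genes on chromosome 11 or the targeted allele, 8 differed in the same direction in lung, Gm12167 among them, and Gm38534 did not. Of those 8, 7 did so without overlap between genotypes. Among the 7, Adam19 and the targeted allele define the genotypes, and Pttg1, Kpna2, AA465934 and Gm12663 were on the study's lung list. Their repeat in lung is thus no independent evidence, and Cyfip2 was the remaining one. The 4 on other chromosomes all had the same direction, and Gm18860 and Gm10184 did so without overlap. Both match a gene of chromosome 11, and both were on the study's lung list. Among all 15303 genes, 5.26% had lungs that did not overlap in the direction of their heart difference.

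The effect on Cyfip2 was larger in heart than in lung. In lung it was at 9.06, 9.05 and 8.78 in WT and at 9.31, 9.34 and 9.40 in KO mice, a difference of 0.39. The heart difference exceeded the lung difference by 2.31 ± 0.26 (SE, adjusted p = 0.0212), and among 17666 genes tested for such a difference it was the only one past the threshold (0.00566%). With each mouse as a replicate block the adjusted p for Cyfip2 was 0.142. On simulated data the test on group means recovered 7.22% of genes changed 2-fold in KO hearts only and 64.6% of those changed 8-fold.

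Contractile, calcium handling and respiratory genes held no called member, where 0.085% of all genes were called. None of 10 cardiomyocyte markers, 24 calcium handling genes or 75 oxidative phosphorylation genes had an unadjusted p under 0.05, against 7.46% of all genes. The lists' medians were −0.02, −0.15 and 0.08. Of the calcium handling genes 5 were higher and 19 lower in KO hearts, and of the oxidative phosphorylation genes 58 and 17. The genotypes lay apart in 1 calcium handling gene with KO higher and in 3 with KO lower, against 7.82% and 5.23% of all genes. Myh6, the main myosin heavy chain of adult mouse heart, was at 20.05, 20.09 and 20.44 in WT and at 20.19, 20.16 and 20.37 in KO hearts. Atp2a2, the calcium pump of the sarcoplasmic reticulum, was at 18.66, 18.86 and 18.81 in WT and at 18.63, 18.78 and 18.53 in KO hearts. Both genes overlapped between genotypes. Among 29 sarcomere genes, 2 were higher at an unadjusted p under 0.05 and none lower, against 4.76% and 2.69% of all genes. Tcap, the titin cap, was at 15.10, 14.81 and 14.68 in WT and at 15.62, 15.47 and 15.57 in KO hearts (adjusted p = 0.378).

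Smooth muscle markers tended upward in KO hearts, and with all 6 libraries none passed adjustment. Of 10 smooth muscle and pericyte markers, 5 were higher at an unadjusted p under 0.05 and none lower. Of all genes 4.76% and 2.69% were. The list median was 0.41 against 0.03 over all genes, with 8 members above 0 and 2 below. The genotypes lay apart in 4 members with KO higher and in 1 with KO lower, against 7.82% and 5.23% of all genes. Tagln, an actin-binding protein of smooth muscle, was at 10.29, 10.04 and 9.79 in WT and at 11.66, 10.82 and 11.78 in KO hearts (difference 1.38 ± 0.25 SE, adjusted p = 0.194). Myh11, the smooth muscle myosin heavy chain, was at 11.44, 11.70 and 11.17 in WT and at 12.36, 11.97 and 12.41 in KO hearts (difference 0.81 ± 0.18 SE, adjusted p = 0.315). Neither overlapped between genotypes.

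The calponin Cnn1 and the actin Acta2 went the same way, with differences of 1.28 and 0.62 (adjusted p = 0.378 and 0.484). The summed level of the 10 markers was 15.56 to 15.59 in WT and 15.74 to 15.82 in KO hearts. In the other settings and with each library left out, 4 or 5 of the 10 were higher at an unadjusted p under 0.05, and without KO replicate 2 Tagln and Cnn1 passed all thresholds. Most markers of some other lists also lay above 0, with 10 of 10 for lung epithelium (median 0.52), 10 of 12 for adipocytes (median 0.38) and 8 of 9 for atrial muscle (median 0.30), and their part in the result was not tested. In bulk RNA, more cells of a type and more RNA in each cell cannot be told apart.

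Genes of cardiac stress also tended upward. Of 20 tested, 5 were higher in KO hearts at an unadjusted p under 0.05 and none lower, against 4.76% and 2.69% of all genes, with a median of 0.19, and none passed adjustment. Nppa, the atrial natriuretic peptide, was at 15.35, 15.40 and 14.03 in WT and at 16.32, 15.72 and 15.96 in KO hearts (adjusted p = 0.6). Nppb, its ventricular relative, was at 11.67, 11.67 and 12.44 in WT and at 11.74, 11.70 and 11.20 in KO hearts (adjusted p = 0.741). Uchl1, a deubiquitinase, differed by 1.26 (adjusted p = 0.194), the matrix protein Tnc by 1.46 (adjusted p = 0.481) and Spp1, osteopontin, by 3.66 (adjusted p = 0.522). Nppa is itself among 9 atrial markers. Their summed level was 14.96 to 16.67 in WT, lowest in WT replicate 3, and 16.08 to 17.33 in KO hearts. The sum includes Nppa and is no separate measure of atrial tissue, whose part in the result was not tested.

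Fatty acid genes included Ucp3 as their 1 called member. Of 38 fatty acid oxidation and PPAR-alpha target genes, 6 were higher and 2 lower at an unadjusted p under 0.05, against 4.76% and 2.69% of all genes, with a median of 0.08. Cpt1a, which admits fatty acids to mitochondria, was at 10.68, 10.88 and 10.76 in WT and at 11.46, 11.68 and 11.48 in KO hearts (difference 0.77 ± 0.12 SE, adjusted p = 0.123). Angptl4, a secreted inhibitor of lipoprotein lipase, was at 7.59, 7.14 and 4.98 in WT and at 8.71, 8.64 and 9.27 in KO hearts (difference 2.30 ± 0.58 SE, adjusted p = 0.434). The genotypes overlapped in neither. Ppargc1a, a coactivator of mitochondrial genes, was lower, at 11.21, 11.56 and 11.43 in WT and 10.92, 10.998 and 10.90 in KO hearts (adjusted p = 0.481).

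The circadian clock list had 9 of 20 genes at an unadjusted p under 0.05, against 7.46% of all genes, with 7 higher and 2 lower. Clock and Arntl, partners in the activating arm, were both lower in KO hearts. Clock was at 11.18, 11.15 and 11.20 in WT and at 10.51, 10.73 and 10.42 in KO hearts (adjusted p = 0.27), and Arntl was at 6.60, 5.66 and 7.89 in WT and at 4.69, 4.94 and 5.27 in KO hearts (adjusted p = 0.508). Dbp, a transcription factor driven by the clock, differed by 0.79 and Per3, a Period gene, by 0.76 (adjusted p = 0.481 for both). The count of higher members ran from 3 to 10 over the settings and left-out libraries. No label used here gives the hour at which a heart was taken, and its part in the result was not tested.

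Chaperone genes tended downward. Of 26 unfolded protein response genes, 7 were lower at an unadjusted p under 0.05 and none higher, against 2.69% of all genes, with a median of −0.20. Manf, a secreted protein of the stressed endoplasmic reticulum, was at 9.93, 9.82 and 10.04 in WT and at 9.04, 8.77 and 9.29 in KO hearts (difference −0.90 ± 0.16 SE, adjusted p = 0.194). Hyou1, a chaperone of the same compartment, was at 11.17, 11.02 and 11.49 in WT and at 10.56, 10.56 and 10.70 in KO hearts (adjusted p = 0.385). Among 18 heat shock genes 4 were lower, led by Hsph1, a cytosolic chaperone, with a difference of −0.69 (adjusted p = 0.303). None of these passed adjustment, and 4 to 9 of the unfolded protein response genes and 1 to 5 of the heat shock genes were lower at that level over the settings.

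Developmental genes tied to the known sites of ADAM19 gave mixed counts. Of 36 valve and endocardial cushion genes, 6 were higher and 1 lower at an unadjusted p under 0.05, with a median of 0.13, and of 29 cardiac transcription factors 5 were higher and 2 lower, beside 4.76% higher and 2.69% lower of all genes. Tbx2, a repressor of the atrioventricular canal, was at 6.73, 6.79 and 7.04 in WT and at 7.69, 7.54 and 7.61 in KO hearts (adjusted p = 0.378). Smad6, an inhibitor of BMP signalling, was at 8.16, 8.04 and 8.41 in WT and at 9.29, 8.65 and 9.35 in KO hearts (adjusted p = 0.385). Tbx20 was lower, by 0.43 on the log2 scale (adjusted p = 0.609).

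Relatives and partners of ADAM19 held no other called gene, but of all genes 0.085% were called, so lists this short say little. Of 13 ADAM protease genes, Adam19 was the 1 called, and Adam12 and Adam8 were higher by 1.08 and 1.22 (adjusted p = 0.609 and 0.641). Adam17, the best known sheddase of the family, was at 10.48, 10.29 and 10.55 in WT and at 10.23, 10.42 and 10.19 in KO hearts. None of 12 ErbB ligands and receptors had an unadjusted p under 0.05, against 7.46% of all genes. The ligand Nrg1 was at 7.03, 6.36 and 5.38 in WT and at 6.85, 6.92 and 5.86 in KO hearts. Of 24 TNF pathway genes 1 was higher at an unadjusted p under 0.05 and none lower, against 4.76% and 2.69% of all genes. It was Cebpb, a transcription factor, with a difference of 0.71 (adjusted p = 0.481).

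In the remaining lists the share of members with an unadjusted p under 0.05 lay on either side of the 7.46% of all genes. It ran from 0% of macrophage markers to 42.9% of the conduction system markers tested, with 13.9% of collagen and matrix genes. Collagen and matrix genes had 4 of 36 higher and 1 lower, among them Fn1, fibronectin, at 11.24, 11.25 and 11.11 in WT and 11.87, 12.83 and 11.72 in KO hearts (adjusted p = 0.481). Cytosolic ribosomal protein genes had 1 of 75 higher at that level, and 0 to 9 over the settings, while 65 of the 75 had a difference above 0, with a median of 0.20. Glycolysis genes had 1 of 29 higher and 1 lower, immediate early genes 2 of 28 higher and 1 lower, interferon-stimulated genes 2 of 33 higher, and muscle splicing factors 1 of 30 higher and 2 lower. Slfn8, an interferon-stimulated gene on chromosome 11, was at 4.26, 3.77 and 3.69 in WT and at 5.63, 5.81 and 6.15 in KO hearts (adjusted p = 0.138). No macrophage, adipocyte or red blood cell marker had an unadjusted p under 0.05. Fibroblast markers had 1 of 10 higher, endothelial markers 2 of 11, lymphocyte markers 1 of 6, and Schwann cell and neuron markers 1 of 7. Of 7 conduction system markers tested, the sinus node factor Isl1 and the calcium channel gene Cacna1d were higher by 1.37 and 0.61 (adjusted p = 0.647 and 0.625), while Cacna1g, a calcium channel gene as well, was lower at a difference of −0.84 (adjusted p = 0.531). The list's summed level was 11.48 to 11.82 in WT and 11.03 to 11.55 in KO hearts.

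**Figure D4:**
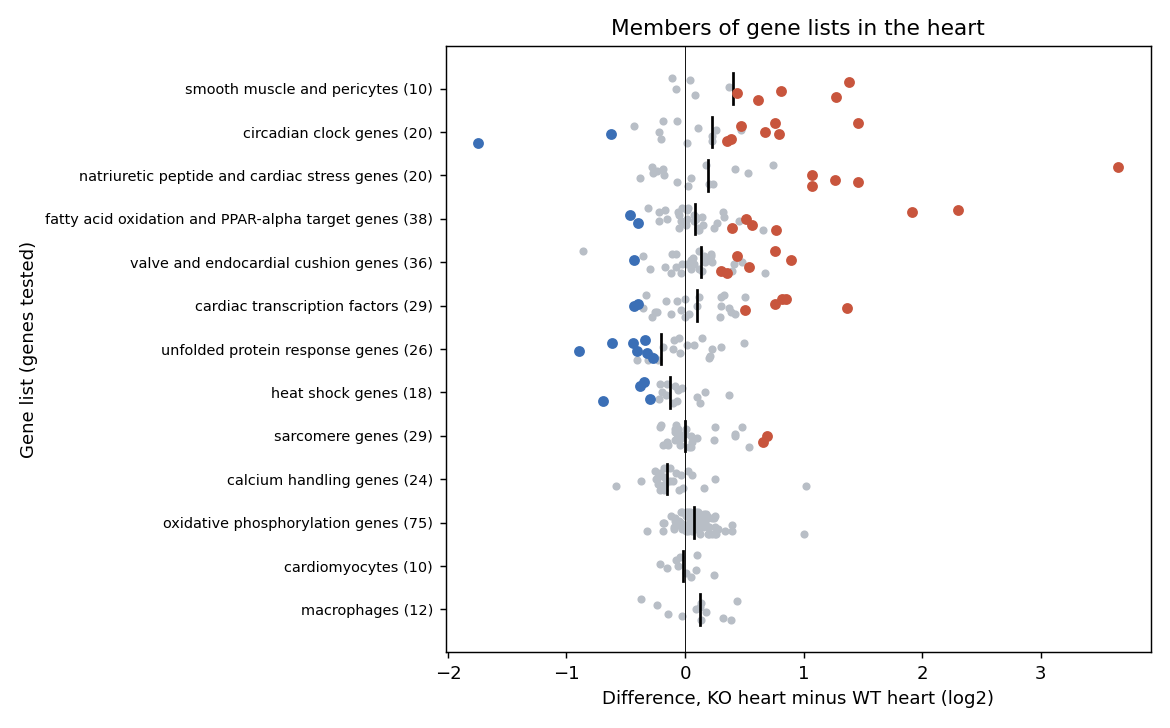
Differences between KO and WT hearts (log2) of the tested members of 13 gene and marker lists, with bars at the medians and members of unadjusted p under 0.05 in red (higher) or blue (lower). The smooth muscle and pericyte list has a median of 0.41 and the unfolded protein response list one of −0.20, against 0.03 over all genes.

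Transcripts were compared after the constant that links each library's transcript values to its gene values had been added. Of 32015 transcripts tested, 20 (0.0625%) passed the same thresholds, 9 higher (0.0281%) and 11 lower (0.0344%) in KO hearts, and 1831 (5.72%) had an unadjusted p under 0.05. All 20 lay apart between genotypes, as did 7.04% of all transcripts with KO higher and 5.16% with KO lower. At the gene level 8 of their 20 genes were called, Adam19, the targeted allele, Kpna2, Pttg1, Cyfip2, Gm10184, AA465934 and Gm12663. The other 12 genes had gene differences between −0.55 and 0.10. Of the 20 transcripts, 16 were listed at 0 in all hearts of one genotype, 6 in WT and 10 in KO hearts. Among transcripts with at least 10 estimated counts in every heart, and with limma-voom, no transcript was called by limma, with 1483 and 1748 at an unadjusted p under 0.05. With counts thinned to the depth of the shallowest heart, 13 genes and 20 transcripts were again called, of which 13 and 19 were the same. On simulated data the transcript test recovered 4.26% of transcripts changed 2-fold and 64.4% of those changed 8-fold.

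Setd5, which encodes a chromatin protein with a SET domain, had the called transcript of smallest p outside chromosome 11. Its transcript ENSMUST00000113157.8 was at 9.32, 9.999 and 9.78 in WT hearts, against a listed 0 for every KO heart (adjusted p = 0.00288), and the gene as a whole differed by 0.10 (adjusted p = 0.896). That transcript made up 50.9%, 58.5% and 57.2% of the gene's estimated counts in WT hearts. In KO hearts ENSMUST00000113155.2 made up 38.0%, 34.5% and 33.5%, against 21.7%, 0% and 0% in WT hearts, and its annotated coding sequence is identical to that of the first. A further transcript, ENSMUST00000042889.12, made up 13.3%, 25.1% and 35.1% in WT and 47.4%, 43.4% and 53.6% in KO hearts, also without overlap. In lungs the first transcript was at 27.2%, 0% and 32.2% in WT and at 15.4%, 22.9% and 18.9% in KO mice, so the genotypes overlapped there.

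Other called transcripts lay on chromosome 11. For Coro6, a coronin of muscle, ENSMUST00000108391.9 was at 7.71, 7.88 and 8.66 in WT hearts and at 0 in KO hearts (adjusted p = 0.0121). Ulk2, an autophagy kinase, lost ENSMUST00000129025.8, which was at 8.41, 8.15 and 8.15 in WT hearts (adjusted p = 0.0121). Neither overlapped between genotypes. Cyfip2 was the called transcript with counts in every heart, at 9.06, 9.42 and 9.83 in WT and at 12.03, 12.43 and 11.87 in KO hearts (difference 2.68 ± 0.24 SE, adjusted p = 0.045).

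Called transcripts also favoured chromosome 11. Of the 19 with a locus 10 lay there, as did 2456 of 31968 transcripts tested, and 8.71% of chromosome 11 transcripts had an unadjusted p under 0.05 against 5.47% elsewhere. In lungs of the same mice, 7 of the 11 called transcripts on chromosome 11 or the targeted allele differed in the same direction, all 7 without overlap. Those 7 include Adam19 and the targeted allele, which define the genotypes, and Kpna2, Pttg1, AA465934 and Gm12663 of the study's lung list. Of the 9 on other chromosomes 1 differed in the same direction, Gm10184, the copy of Kpna2, while Crim1 lay apart in the opposite direction. Its ENSMUST00000234700.2 was at 7.27 to 8.34 in WT hearts and at 0 in KO hearts, but at 0, 0 and 7.63 in WT and 8.41, 9.52 and 8.29 in KO lungs. Over all transcripts tested, 4.58% had lungs that did not overlap in the direction of the heart difference and 7.25% in the opposite one.

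Transcript usage, the division of a gene's RNA among its transcripts, was called different in 69 of 7984 genes tested (0.864%). Calls needed an adjusted Simes p under 0.05 and a share change of at least 10 percentage points. By the adjusted p alone 157 (1.97%) passed. On simulated data the same test called 41 unchanged genes beside 129 of 199 changed ones, more than its threshold allows. Of the 69, 1 was itself a called gene, Adam19, and its shares leave out the targeted allele transcripts. Loss of its full-length transcript thus left the short ENSMUST00000137014.2 with a share 99.6 points higher in KO hearts. On chromosome 11 lay 10 of the 69, as did 636 of 7979 tested genes with a locus. The genes with the smallest p were Crim1, Raly, D630045J12Rik, Flna and Ulk2. With at least 10 estimated counts in every heart 1 gene was called, and it was not among the 69.

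D630045J12Rik had one of the largest shifts. ENSMUST00000117556.8 held 79.7%, 85.9% and 91.5% of its estimated counts in WT hearts and 0% in each KO heart, while ENSMUST00000169256.5 held 0% in each WT heart and 94.7%, 91.1% and 90.9% in KO hearts (adjusted p = 1.21e-09). The shares rest on 45.2 to 78.6 estimated counts of ENSMUST00000117556.8 in a WT heart and 78.2 to 114.3 of ENSMUST00000169256.5 in a KO heart. In lungs the first held 88.4%, 0% and 0% in WT and 87.5%, 61.8% and 75.5% in KO mice, so that lungs did not repeat the direction. The transcripts share 10914 bases, and the one seen in KO hearts has 54 more at chr6:38230891-38230944 of GRCm39, minus strand, with the annotated start codon in capitals. Those bases are shown because they are nearly all that told the transcripts apart, the other one having 2 bases of its own.
D630045J12Rik: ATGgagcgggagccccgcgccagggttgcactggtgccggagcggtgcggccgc

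Clvs1, which encodes a lipid-binding protein of clathrin-coated vesicles, showed a swap of the same kind. ENSMUST00000108348.2 held 88.0%, 96.1% and 100% in WT hearts and 0% in KO hearts, and ENSMUST00000038841.14 held 0% in WT hearts and 96.5%, 100% and 87.2% in KO hearts (adjusted p = 6.69e-06). They rest on 7.58 to 27.1 estimated counts of ENSMUST00000108348.2 in a WT heart and 11.8 to 27.8 of ENSMUST00000038841.14 in a KO heart. In KO lungs the first held 100% in each mouse. Of 68 called genes with both transcripts of the shift in the annotation, 24 had identical coding sequences in the pair, 33 had different ones and 11 had a member without one, and 14 pairs differed by 100 bases or fewer.

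Lungs of the same mice repeated few shifts of usage. Of the 10 genes on chromosome 11, 5 moved in the same direction in lung. Adam19, whose full-length transcript fell in both organs, and Irgm2 did so without overlap. Of 59 on other chromosomes 22 moved in the same direction, and Chid1 was the 1 without overlap. In 6 of the 59, Flna, Pcsk5, Mtf2, Mbnl1, Sipa1l1 and Tmem258, the lungs lay apart in the opposite direction. Over all genes tested for usage, 4.13% had lungs without overlap in the direction of the heart and 8.83% in the opposite one. Irgm2, an interferon-inducible GTPase, Chid1 and these 6 genes were chosen after their values were seen.

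Irgm2, 12.1 Mb from Adam19, had the same shift in both organs. ENSMUST00000058704.9 held 43.7%, 85.4% and 62.1% of its estimated counts in WT hearts and 7.52%, 1.7% and 1.56% in KO hearts, and in lungs it held 41.8%, 84.8% and 81.8% in WT and 0%, 5.33% and 8.54% in KO mice. ENSMUST00000108836.2 rose from 38.7%, 0% and 0% in WT hearts to 81.0%, 87.6% and 89.3% in KO hearts (adjusted p = 0.0285 for the gene). The annotated coding sequences of the pair are identical. For Chid1, ENSMUST00000166082.8 held 0% in every WT heart and lung, 56.0%, 12.2% and 16.2% in KO hearts and 62.1%, 51.5% and 9.14% in KO lungs.

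**Figure D5:**
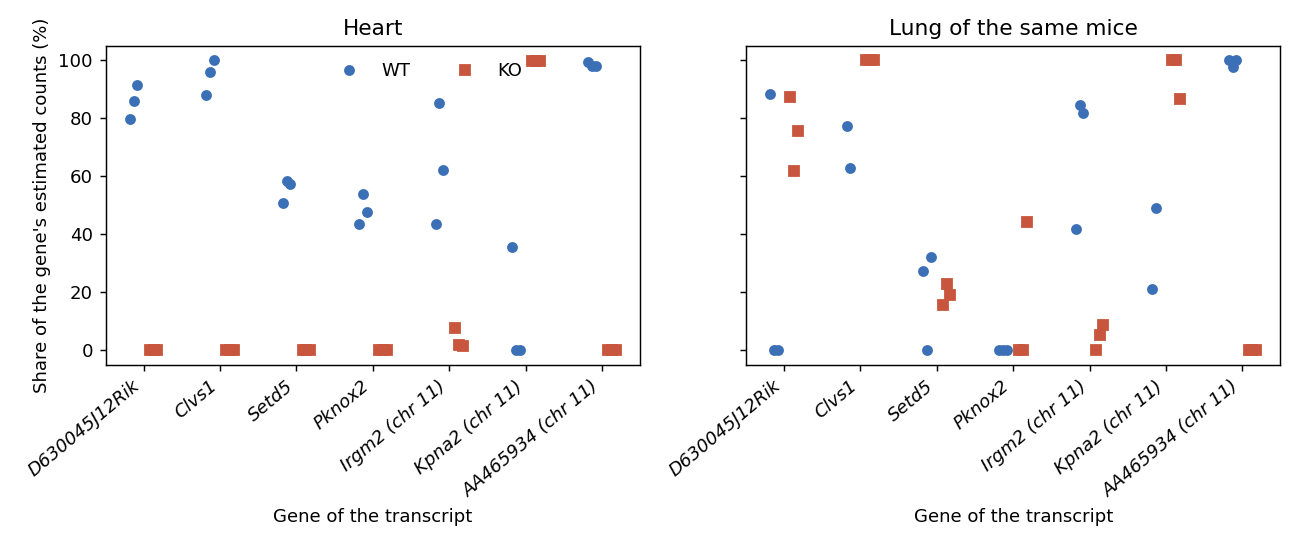
Share of a gene's estimated counts (percent) held by 1 transcript of each named gene in hearts (left) and lungs (right) of WT (circles) and KO (squares) mice. Heart shares of the genotypes lie apart in all 7 genes. In lung those of D630045J12Rik, Setd5 and Pknox2 overlap, and those of Clvs1 were not scored as apart. ENSMUST00000058704.9 of Irgm2 was at 43.7% to 85.4% in WT and at 1.56% to 7.52% in KO hearts.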

How the data were processed

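Strand-specific total RNA libraries were made from heart and lung of the same mice. The authors quantified reads with Salmon against GENCODE vM33 transcripts (mm39) and deposited log2 values per gene (55679 genes, scaled between libraries) and log2 values of 1 plus the estimated count per transcript (147907 transcripts, not scaled). For the submitters' processing, limma 3.42.2 is also named in their notes.

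To put transcripts on the gene scale, each library's median gene-minus-transcript value over single-transcript genes with a transcript value of at least 9 was added to values above 0. Gene values of genes with several transcripts did not follow this constant. Features with at least 10 estimated counts (log2 value 3.46) in 3 hearts were tested with limma 3.58.1 (R 4.3.3), lmFit and eBayes with trend, KO against WT, since the deposited values are not counts. Calls needed a Benjamini-Hochberg adjusted p under 0.05, a fold change of 1.5 and a mean of 6 in one group. Transcript usage was tested with diffSplice (Simes p) and a share change of 10 points, and it also called unchanged genes on simulated data more often than its threshold allows. The difference between organs was tested on 4 group means over 12 libraries.

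The genes named are Adam19, those past all thresholds, some of the 15 usage genes of smallest p, and up to 4 members a list by p or abundance. Members, lists and tests were chosen with earlier results of these data known. Cpt1a, Angptl4, Ppargc1a, Nppb, Isl1, Cacna1d, Cacna1g, Irgm2, Chid1 and genes that lay apart in the opposite direction in lung were named after their values were seen. Loci and sequences come from GENCODE vM39 on GRCm39, the same assembly, matched by gene identifier for 15260 of 15303 genes tested, and of 136 transcripts compared for structure 38 had the same version there. Depth was 18392300 to 35862900 estimated counts a heart. Heart and lung of a mouse are paired by their labels, and their deviations from the group means correlated at −0.07 to 0.14 over the 6 mice. Filters, variance models, scaling, pseudocounts, thinned counts and left-out libraries were tried as alternatives. Columns of other samples numbered 0. The values of 1 called transcript are not reported here.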

Additional observations from a re-analysis of the deposited data

Results flagged for a closer look

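The effect of the KO on Cyfip2 differed between the organs of the same mice. Its difference was 2.70 in heart and 0.39 in lung, and the heart exceeded the lung by 2.31 ± 0.26 (SE, adjusted p = 0.0212, limma). All 3 KO hearts lay above all WT hearts, and all 3 KO lungs above all WT lungs. The adjusted p was 0.142 with each mouse as a replicate block. Groups of 3 were not tested for single libraries that stand apart.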

How the results depend on the processing

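No paired analysis was possible because KO and WT mice share no animal and their replicate numbers were given in accession order. Heart and lung of a mouse are paired, and with that replicate block 2 genes passed the test of the difference between organs in place of 1, Gm10095 and Gm2296, with Cyfip2 not among them. Without the variance trend 4 genes passed it.

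The count of called genes was 13, fell to 7 with at least 10 counts in every heart, and ran from 10 to 21 when a library was left out, with 21 without KO replicate 2. Ucp3 also lost its call without the variance trend, under limma-voom and with summed transcripts, Gm18860 under limma-voom, Adam19 without the trend, and Kpna2, Susd5 and Gm12167 with the variance of all 12 libraries. Transcript calls were less stable. The 20 became 0 with at least 10 counts in every heart, 0 under limma-voom, 49 without the trend and 35 with a pseudocount of 8, and ran from 3 (without KO replicate 3) to 48 (without WT replicate 3). The 69 genes of changed usage became 1 with at least 10 counts in every heart, 41 by the log ratio to the rest of the gene and 157 with no minimum share change, and ran from 90 (without KO replicate 3) to 280 (without WT replicate 3). With counts thinned to the shallowest heart, 76 genes changed usage. Where fewer features could be tested or samples were fewer the setting itself changed the test, and otherwise the cause was not tested. No called gene or transcript changed direction in any setting. The chromosome 11 shares and list counts under other settings were chosen after seeing the data.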

Other observations

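Gm10095 and Gm2296, chosen after their values were seen, were present in both organs of 1 WT mouse. Gm10095 was at 9.56 in the heart and 8.95 in the lung of WT replicate 2 and at 0 in the other 2 WT mice. In KO mice it was at 0 in every heart and at 8.94, 9.60 and 7.93 in the lungs. Gm2296 was at 8.68 in the heart and 8.29 in the lung of WT replicate 2, at 0 in the other 2 WT mice and in every KO heart, and at 7.55, 7.73 and 7.60 in the KO lungs.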
